A study of Homo sapiens with 18 samples.

Results

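In the 18 RNA-Seq libraries of the series, 6 genes of the DHRS group of short-chain dehydrogenases were followed: DHRS2, DHRS3, DHRS4, DHRS4L2, DHRS7 and DHRS9, which are 6 of 22136 genes in the count table of 2 days and 6 of 21276 in that of 7 days. They were taken by gene name, and the group was chosen by the large difference of DHRS2 between VIC-1911, an inhibitor of the kinase AURKA, and vehicle at 7 days. That comparison is therefore described for all 6 genes without a test. The same holds for DHRS2 wherever the 7-day vehicle or VIC-1911 libraries enter.

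Short-chain dehydrogenases are NAD(P)-dependent enzymes that oxidize alcohols or reduce ketones and aldehydes on retinoids, steroids and other carbonyl compounds. The DHRS enzymes sit in the endoplasmic reticulum, peroxisomes, mitochondria or nucleus, and several set how much retinaldehyde is left for the synthesis of retinoic acid. DHRS2, also known as HEP27, reduces dicarbonyls and has been described as a binding partner of the ubiquitin ligase MDM2. Prostate epithelium is rich in enzymes of this kind, since androgens are made and inactivated by the same chemistry.

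All libraries came from C4-2B, a human prostate cancer cell line labelled wild type and grown in serum-containing medium. At 2 days there were 3 libraries of cells given DMSO vehicle and 3 of cells given 0.1 μM VIC-1911. At 7 days there were 3 libraries each of cells given vehicle, 0.1 μM VIC-1911, 1 μM of the PARP inhibitor olaparib, or both drugs (the combination). The study compared the drugs to ask how AURKA inhibition alters the response to PARP inhibition. Nothing in the labels says that replicates were separate cultures, so p-values measure the spread between these libraries, which may be technical.

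Between 3245273 and 7184420 reads were counted on genes per library at 2 days, and between 4967931 and 19684208 at 7 days. The 7 prostate luminal markers examined were present in every library. Of 13 markers of other cell types, CD3E, DCN and KRT5 were at 0 in all libraries, PTPRC, PECAM1 and TP63 were at 0.0113 FPKM (fragments per kilobase of gene, scaled by the library size) or less, and CD68 was highest at 5.55 to 10.1 FPKM. COL1A1 lay between 1.10 and 2.27 FPKM, KRT14 between 0.0908 and 2.89, SYP between 0.288 and 1.35 and VWF between 0.173 and 0.754. COL3A1 and CHGA reached at most 0.201 and 0.0857 FPKM. Summed over the 13, they lay between 8.44 and 10.1 FPKM at 2 days, between 11.3 and 12.03 in the vehicle and VIC-1911 libraries of 7 days, and between 13.6 and 16.1 in the olaparib and combination libraries, and their part in the results was not tested. The labels give the olaparib and combination libraries a run of library names apart from that of the 7-day vehicle and VIC-1911 libraries, and in comparisons across these runs drug and run cannot be told apart.

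The 6 genes differed widely in level. DHRS7 was the most abundant at every time and in every group, with group means of 126 to 282 FPKM. DHRS3, DHRS4 and DHRS4L2 had group means between 2.99 and 8.83 FPKM. The group means of DHRS2 stayed at or below 1.25 FPKM and those of DHRS9 below 0.1 FPKM, so counting error weighs most on these last genes. DHRS9 failed the filter of 10 counts in 3 libraries at both times, and the other 5 genes passed at both. At 2 days DHRS2 passed only through its VIC-1911 libraries, and at 7 days no vehicle library reached the limit.

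**Figure D1:**
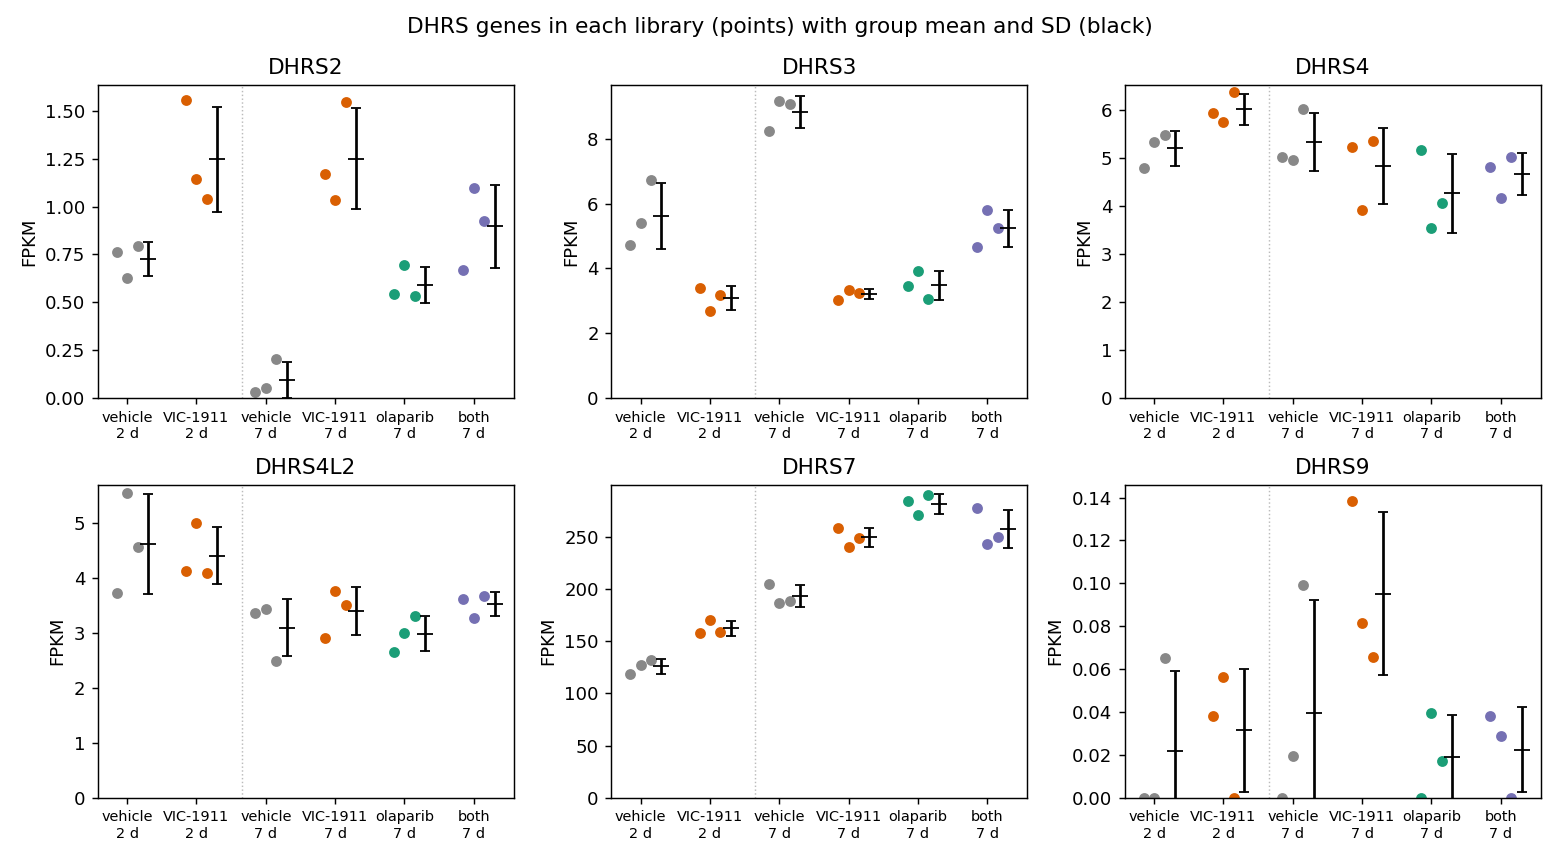
FPKM of each of the 6 DHRS genes (vertical axis, from 0, a different scale in each panel) in every library (points) of the 6 groups, with the group mean and SD of 3 libraries beside them in black; a dotted line parts 2 days from 7 days. DHRS2 is lowest in the 7-day vehicle libraries, DHRS3 is highest there, DHRS7 is higher in all treated groups, and DHRS4 and DHRS4L2 stay close to their vehicle level.

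DHRS2 (chromosome 14, 23630115 to 23645639, GRCh38.p14) was barely detected in vehicle cells at 7 days and was found in all treated libraries of that time. The vehicle libraries held 1, 2 and 3 counts, or 0.0310, 0.0522 and 0.202 FPKM. The VIC-1911 libraries held 25, 28 and 52 counts, or 1.17, 1.03 and 1.54 FPKM. These are the values for which the gene was chosen, and the groups lay far apart.

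With olaparib the 3 libraries had 6, 26 and 23 DHRS2 counts, which at their different depths are 0.543, 0.696 and 0.530 FPKM. The combination libraries had 26, 28 and 31 counts, or 0.669, 1.10 and 0.924 FPKM. Every olaparib and combination library thus stood above every vehicle library. The group means ran from 0.0949 ± 0.0930 FPKM (SD, n = 3) in vehicle through 0.590 ± 0.0923 in olaparib and 0.896 ± 0.215 in the combination to 1.25 ± 0.264 in VIC-1911. Neighbours in the upper range overlapped, since the lowest combination library lay within the olaparib range and the highest within the VIC-1911 range.

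Because the vehicle group held 6 DHRS2 counts in all, its folds are given on pooled counts, and without an interval since these libraries chose the gene. Pooled DHRS2 was 17.6 times higher with VIC-1911 than with vehicle, 8.42 times higher with olaparib and 12.3 times higher with the combination. Of these 6 counts 3 came from replicate 3, the shallowest vehicle library. Without it the fitted log2 difference for VIC-1911 went from 4.04 to 4.72. That for olaparib went from 2.99 to 3.67 and that for the combination from 3.55 to 4.23. Omitting a different library could also lower them, to 3.62 with VIC-1911, 2.57 with olaparib and 3.13 with the combination at the lowest. On log2(FPKM + 0.1) the differences were 2.87, 1.92 and 2.43, and on log2(FPKM + 1) they were 1.04, 0.54 and 0.79. The added constant shrinks the difference of a gene this low, so its size depends on the scale. In the combination, pooled DHRS2 was 0.699 times the VIC-1911 level, but the libraries of these groups overlapped. In bulk RNA, a larger share of cells with DHRS2 transcripts and more transcripts per cell cannot be told apart.

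**Figure D2:**
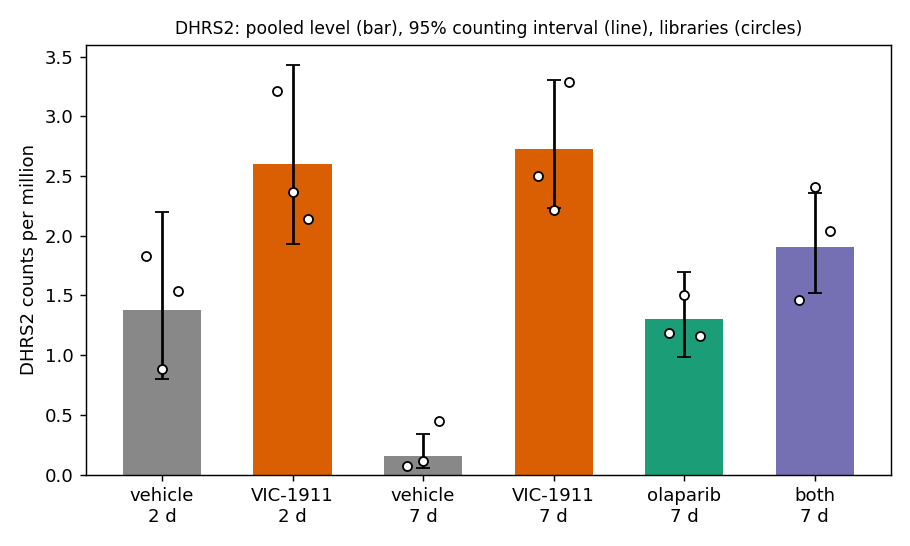
DHRS2 in CPM, counts scaled by the library size after TMM scaling (vertical axis, linear from 0) in the 6 groups, with the pooled level of 3 libraries as a bar, its exact 95% Poisson interval as a line and single libraries as circles. The intervals cover counting error alone. Comparisons with the 7-day vehicle or VIC-1911 bars are a description and no test, since those libraries chose the gene. The 7-day vehicle bar stands at 0.155 and the others between 1.30 and 2.73, and the VIC-1911 bars of 2 and 7 days are close to each other at 2.60 and 2.73.

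The 2-day libraries, which had no part in the choice of DHRS2, gave a smaller difference that missed the threshold. DHRS2 had 6, 4 and 7 counts in the vehicle libraries, or 0.762, 0.625 and 0.793 FPKM. With VIC-1911 it had 23, 12 and 15 counts, or 1.56, 1.14 and 1.04 FPKM. All 3 VIC-1911 libraries were above all 3 vehicle libraries. The fitted log2 difference was 0.91 (SE 0.38, 95% interval 0.13 to 1.68), with an adjusted p of 0.109 in edgeR's quasi-likelihood test with Benjamini-Hochberg adjustment over all genes. The gene entered this fit through its VIC-1911 libraries alone, which ties the test to their level, and with no filter on counts the difference was 0.92 with an adjusted p of 0.142. The pooled ratio was 1.89, with an exact 95% interval of 1.07 to 3.50 that covers counting error alone. Tested with limma on log2(FPKM + 0.1) the difference was 0.69 with an adjusted p of 0.0358. In that test too DHRS2 entered through its VIC-1911 libraries alone.

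The 2-day FPKM values go back to more reads than the counts do, and they allow the reads to be recovered as whole numbers. On this basis DHRS2 had 6, 7 and 9 reads in the vehicle and 30, 15 and 18 reads in the VIC-1911 libraries, and edgeR gave a log2 difference of 0.82 (SE 0.35) with an adjusted p of 0.0961. In this fit too DHRS2 passed the filter through its VIC-1911 libraries alone, which ties the test to their level. The ratio of the pooled reads was 1.76 (1.067 to 3.001). These are the same 6 libraries read in another way, not further evidence.

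Set side by side, the VIC-1911 libraries had nearly the same DHRS2 level at both times, 1.25 ± 0.274 FPKM (SD, n = 3) at 2 days and 1.25 ± 0.264 at 7 days. The vehicle libraries did not, with 0.727 ± 0.0897 FPKM at 2 days against 0.0949 ± 0.0930 at 7 days. The tables of the 2 times were made separately and the difference between times was not tested.

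Adding VIC-1911 to olaparib was the other comparison between groups that had no part in the choice of DHRS2. Its fit, though, took scaling and spread from all 12 libraries of 7 days, among them those that chose the gene. Pooled DHRS2 was 1.46 times higher in the combination than with olaparib (exact 95% interval 1.03 to 2.09, which covers counting error alone). The fitted log2 difference was 0.56 (SE 0.30, 95% interval -0.05 to 1.16), and the edgeR adjusted p of 0.245 did not pass. The libraries of the groups overlapped, and in no alternative that gave a value did the call change.

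DHRS3 (chromosome 1, 12567910 to 12618210) encodes a reductase that turns retinaldehyde back into retinol and so limits the making of retinoic acid. It fell with each single drug and fell less with both. At 2 days the vehicle libraries had 4.73, 5.42 and 6.73 FPKM and the VIC-1911 libraries 3.41, 2.69 and 3.17 FPKM. The groups did not overlap, and DHRS3 was lower by a log2 fold change of -0.82 (SE 0.18, edgeR adjusted p = 0.00115), which is past the study's limit of 1.5-fold.

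At 7 days the DHRS3 level in vehicle was 8.26, 9.16 and 9.08 FPKM. VIC-1911 libraries had 3.03, 3.33 and 3.26 FPKM, a log2 difference of -1.50 (SE 0.12) that is described without a test. Olaparib libraries had 3.46, 3.93 and 3.05 FPKM. The single drugs thus left DHRS3 at much the same level, below every vehicle library, and for olaparib the log2 fold change was -1.36 (SE 0.12, edgeR adjusted p = 3.87e-11), past the study's limit of 2-fold.

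The combination libraries had 4.66, 5.80 and 5.25 FPKM of DHRS3. Each lay above all 6 libraries of the single drugs and below all 3 of vehicle. The log2 fold change was -0.77 (SE 0.11, edgeR adjusted p = 3.98e-07) against vehicle, 0.60 (SE 0.12, adjusted p = 0.00127) against olaparib and 0.73 (SE 0.12, adjusted p = 2.09e-05) against VIC-1911. Within the olaparib and combination libraries alone, which share a run of library names, DHRS3 was therefore higher when VIC-1911 was added, whereas within the vehicle and VIC-1911 libraries it was lower with VIC-1911. The difference between these effects contains the comparison that chose the genes and was not tested.

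DHRS4 encodes a peroxisomal carbonyl and retinaldehyde reductase, and DHRS4L2 is a copy of it in the same cluster on chromosome 14. In GENCODE v44 on GRCh38 the main transcript of DHRS4 runs from 23953770 to 23969279 in 8 exons, and that of DHRS4L2 from 23988929 to 24006403, also in 8 exons. Their coding sequences agreed at 680 of 699 aligned bases (97.3%), against 70.8% between DHRS2 and DHRS4. The first 120 coding bases of the pair are shown with the facing bases of DHRS2, because they hold 10 of the 19 bases at which the copies differ, so that reads from elsewhere in the coding sequence have fewer bases to tell them apart.
DHRS4: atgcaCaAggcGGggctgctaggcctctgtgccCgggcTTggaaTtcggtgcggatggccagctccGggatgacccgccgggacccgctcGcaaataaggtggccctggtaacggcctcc
DHRS4L2: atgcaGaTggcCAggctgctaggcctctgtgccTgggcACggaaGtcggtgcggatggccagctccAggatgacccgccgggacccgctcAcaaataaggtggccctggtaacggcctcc
DHRS2: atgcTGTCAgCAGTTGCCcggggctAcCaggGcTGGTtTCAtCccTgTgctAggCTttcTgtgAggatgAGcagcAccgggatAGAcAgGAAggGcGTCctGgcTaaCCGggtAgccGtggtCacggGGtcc
Capitals in the pair mark the 10 bases at which they differ, and capitals in DHRS2 mark the bases that differ from DHRS4 or face a gap. The 3 sequences are from the transcripts ENST00000313250, ENST00000335125 and ENST00000250383 and begin at the start codon.

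Of all 50-base windows of the DHRS4 transcript, 51.6% occur unchanged in DHRS4L2, and of its 100-base windows 25.5%. DHRS2 shares no 50-base window with either copy. How the authors' counting shared such reads is not stated, so the split between DHRS4 and DHRS4L2 is uncertain, while DHRS2 is not touched by it. In addition, exons of the antisense RNA DHRS4-AS1 in GENCODE v44 cover 205 of the 1264 exon bases of DHRS4 (16.2%) and 179 of the 1258 of DHRS4L2 (14.2%). In RefSeq DHRS4-AS1 ends at 23955112, before DHRS4L2 starts at 23969874, so the overlap with DHRS4L2 depends on the annotation. Neither the annotation release nor the strand setting of the counting is stated.

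DHRS4 changed little. At 2 days it had 4.78, 5.32 and 5.48 FPKM in vehicle and 5.92, 5.74 and 6.37 FPKM with VIC-1911. The VIC-1911 libraries were all higher, but the log2 difference of 0.21 (SE 0.18) had an edgeR adjusted p of 0.468. At 7 days the group means were 5.33 ± 0.594 FPKM (SD, n = 3) in vehicle, 4.83 ± 0.791 with VIC-1911, 4.26 ± 0.828 with olaparib and 4.66 ± 0.445 with the combination, and the 4 groups overlapped.

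With olaparib DHRS4 was called lower, at a log2 fold change of -0.39 (SE 0.15, edgeR adjusted p = 0.0288). This call was lost in 7 of 15 alternatives, among them DESeq2 (adjusted p = 0.0564), library size as the only scaling (0.0519), and the fits without vehicle replicate 3 (0.0782), olaparib replicate 2 (0.197) or olaparib replicate 3 (0.0707). Against vehicle the combination differed by -0.15 (SE 0.14, edgeR adjusted p = 0.375), and against olaparib by 0.24 (SE 0.15, adjusted p = 0.336).

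DHRS4L2 passed no test. Its group means were 4.62 ± 0.911 FPKM (SD, n = 3) in vehicle and 4.41 ± 0.519 with VIC-1911 at 2 days. At 7 days they lay between 2.99 ± 0.325 with olaparib and 3.53 ± 0.215 with the combination. Its log2 differences were between -0.16 and 0.22 over the 6 comparisons, and the smallest edgeR adjusted p was 0.323, for the combination against olaparib.

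When the counts of the copies were summed, the olaparib difference was -0.23 with an edgeR adjusted p of 0.0464. Summing removes the split of reads counted for either copy, but not the question of shared reads left uncounted or counted for other genes. In the other tested comparisons the sum gave log2 differences between -0.004 and 0.22 and passed in none of them. DHRS4-AS1 itself was higher with VIC-1911 at 2 days by a log2 fold change of 0.34 (SE 0.098, edgeR adjusted p = 0.016) and higher with olaparib at 7 days by 0.30 (SE 0.071, adjusted p = 0.000753). DESeq2 did not call the 2-day difference (adjusted p = 0.114). With olaparib the direction was opposite to that of DHRS4.

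DHRS7 (chromosome 14, 60144119 to 60169889) encodes a membrane reductase of the endoplasmic reticulum that acts on steroids and retinoids, among them dihydrotestosterone. It rose with VIC-1911 at 2 days and with olaparib and the combination at 7 days. At 2 days it had 119, 127 and 132 FPKM in vehicle and 158, 171 and 159 FPKM with VIC-1911, with no overlap. The log2 fold change was 0.39 (SE 0.053, edgeR adjusted p = 7.91e-07), or 31.2% more.

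At 7 days DHRS7 had 205, 186 and 188 FPKM in vehicle, 259, 241 and 249 FPKM with VIC-1911, 284, 271 and 290 FPKM with olaparib, and 278, 243 and 250 FPKM with the combination. Each treated library was above each vehicle library. VIC-1911 gave a log2 difference of 0.32 (SE 0.049, not tested), olaparib a log2 fold change of 0.53 (SE 0.049, edgeR adjusted p = 3.15e-10) and the combination 0.41 (SE 0.049, adjusted p = 3.19e-08). All were below the study's limit of 2-fold.

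The combination and olaparib groups differed in DHRS7 by -0.12 (SE 0.049, edgeR adjusted p = 0.127), and the combination and VIC-1911 by 0.09 (SE 0.049, adjusted p = 0.157). The 95% intervals of these differences ran from -0.22 to -0.02 and from -0.01 to 0.19.

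DHRS9 (chromosome 2, 169067077 to 169096167) encodes a dehydrogenase of retinol and hydroxysteroids. It was at or near 0 throughout. No count was made in the vehicle libraries at 2 days, and taking 3 counts over the group as the most that a count of 0 allows, the level was up to 0.243 CPM there, and a single count was made in the VIC-1911 libraries. At 7 days there were 0, 1 and 2 counts in vehicle, 4, 3 and 3 with VIC-1911, 0, 2 and 1 with olaparib, and 2, 1 and 0 with the combination. The VIC-1911 libraries had the most, with 10 counts against 3 in vehicle, a pooled ratio of 3.36 that rests on few counts. In 2 of the 2-day libraries without a count the FPKM table lists values of 0.0650 and 0.0563, each of which is 1 read.

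**Figure D3:**
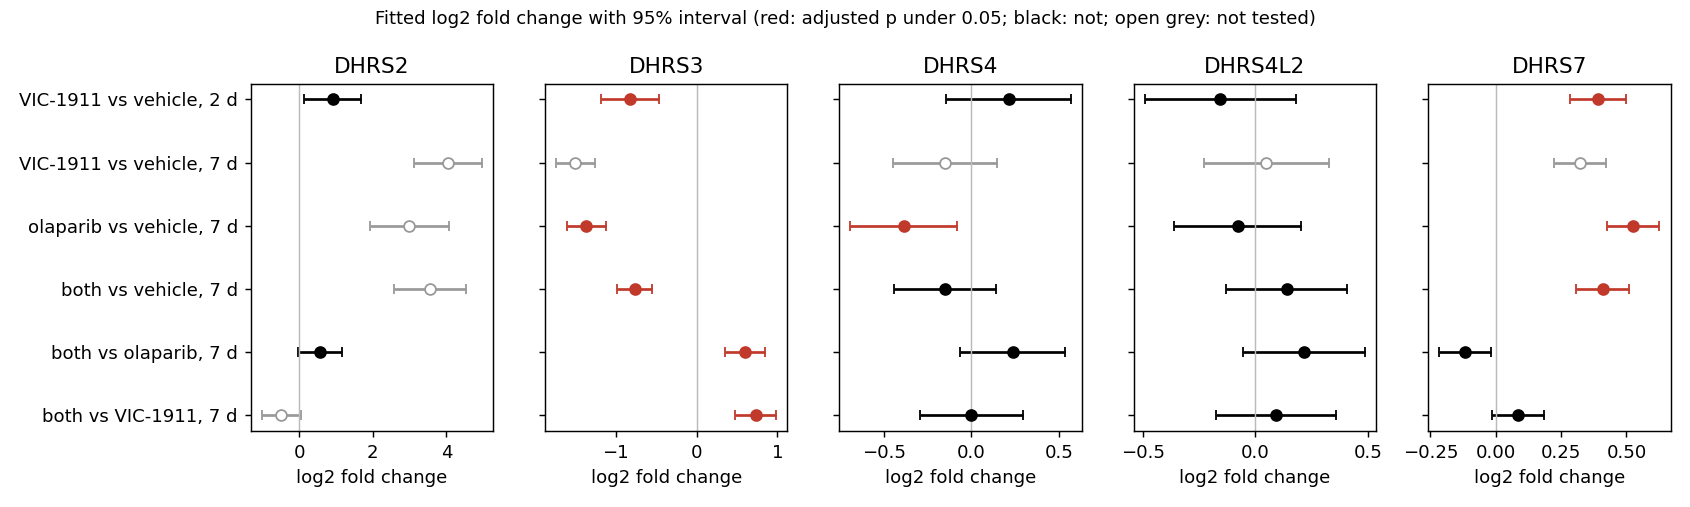
Fitted log2 fold change (horizontal axis, a different range in each panel) with its 95% interval for 5 DHRS genes in the 6 comparisons; red points had an edgeR adjusted p under 0.05, black points did not, and open grey points were not tested. The intervals at the open grey points are a description and no test, since libraries of those comparisons chose the genes. DHRS3 lies below 0 in all comparisons with vehicle and above 0 where the combination is set against a single drug, and DHRS7 lies above 0 in all comparisons with vehicle.

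Counted together, 2 of the 5 genes tested at 2 days passed, where 14.7% of the 12241 genes tested did. DHRS7 was the 1 higher, beside 7.50% of all genes, and DHRS3 the 1 lower, beside 7.19%. With olaparib at 7 days 3 of 4 passed, against 54.0% of 14409 genes, with DHRS7 higher (28.1% of all genes) and DHRS3 and DHRS4 lower (25.9%). The combination against vehicle gave 2 of 4, against 56.6%, with DHRS7 higher (28.6%) and DHRS3 lower (28.0%). Between the combination and olaparib 1 of 5 passed where 11.5% of all genes did, and this was DHRS3, higher (4.55%). No member was lower there in edgeR or DESeq2 (6.95% of all genes were), and 1, DHRS7, was lower at an unadjusted p under 0.05. Between the combination and VIC-1911 1 of 4 passed where 42.9% did, again DHRS3, higher (20.7%), and none was lower in edgeR, in DESeq2 or at an unadjusted p under 0.05 (22.2% of all genes were lower in edgeR). With 4 or 5 genes in each count, these shares are not a result about the members as a group. DHRS2, 1 of the 5 at 2 days, was tested there only because of its VIC-1911 libraries.

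Over the 12 libraries of 7 days, log2 CPM of DHRS2 had a Pearson correlation of -0.78 with DHRS3 and 0.67 with DHRS7, and DHRS3 one of -0.81 with DHRS7. DHRS4L2 had correlations between -0.33 and 0.10 with the others. These are descriptions over 12 libraries in 4 groups that share depth and treatment.

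The other DHRS genes, a list of 11 that holds BDH2, HSD17B11 and HSD17B14 under their present names, gave few calls. At 2 days 8 could be tested and none passed in edgeR's test, where 14.7% of all genes did, or in DESeq2, which left 1 without an adjusted p. At an unadjusted p under 0.05 in edgeR 1 was higher and 2 were lower. The smallest adjusted p there was 0.0921, for DHRS11, a carbonyl reductase of steroids, at a log2 difference of -0.28. The median log2 difference of the 8 was -0.11, against -0.003 for all genes. At 7 days 10 could be tested, and with olaparib 1 was higher and 2 were lower, beside 28.1% and 25.9% of all genes.

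DHRS13, a little-studied member, fell the furthest of the genes on this list that passed. It had 38.4 ± 2.80 FPKM (SD, n = 3) in vehicle at 7 days, 20.3 ± 1.54 with VIC-1911, 16.3 ± 1.08 with olaparib and 12.8 ± 1.61 with the combination. Its log2 fold change was -1.22 (SE 0.075, edgeR adjusted p = 2.56e-14) with olaparib and -1.57 (SE 0.075, adjusted p = 5.71e-17) with the combination, which was also lower than olaparib by -0.35 (SE 0.081, adjusted p = 0.00454). Unlike DHRS3, then, DHRS13 was lowest with both drugs. At 2 days its difference of -0.20 (SE 0.085) had an adjusted p of 0.104.

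HSD17B11, a lipid droplet dehydrogenase of steroids formerly called DHRS8, moved the other way. Its mean was 1.49 ± 0.380 FPKM (SD, n = 3) in vehicle and 3.16 ± 0.308 with the combination at 7 days, a log2 fold change of 1.18 (SE 0.18, edgeR adjusted p = 1.43e-06), and the olaparib effect was 0.74 (SE 0.19, adjusted p = 0.00161). DHRS7B, a reductase of ether lipid synthesis, was lower with olaparib by -0.34 (SE 0.079, edgeR adjusted p = 0.000571) and higher with the combination than with olaparib by 0.24 (SE 0.078, adjusted p = 0.0396). DHRS12 was likewise higher with the combination than with olaparib, by 0.32 (SE 0.095, adjusted p = 0.0249). DESeq2 did not call DHRS7B (adjusted p = 0.091) or DHRS12 (adjusted p = 0.0645) in that comparison.

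The remaining tested genes of this list did not pass with olaparib or with the combination against vehicle. DHRS1, DHRS11, DHRSX and BDH2 had log2 differences between -0.26 and 0.35 in these comparisons. HSD17B14 and the pseudogene DHRS4L1, both under 0.8 FPKM in every group, had differences of -0.70 and -0.71 with the combination, at edgeR adjusted p of 0.0991 and 0.0558. DHRS4L1 is a further copy in the DHRS4 cluster, and its counts are uncertain in the same way.

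**Figure D4:**
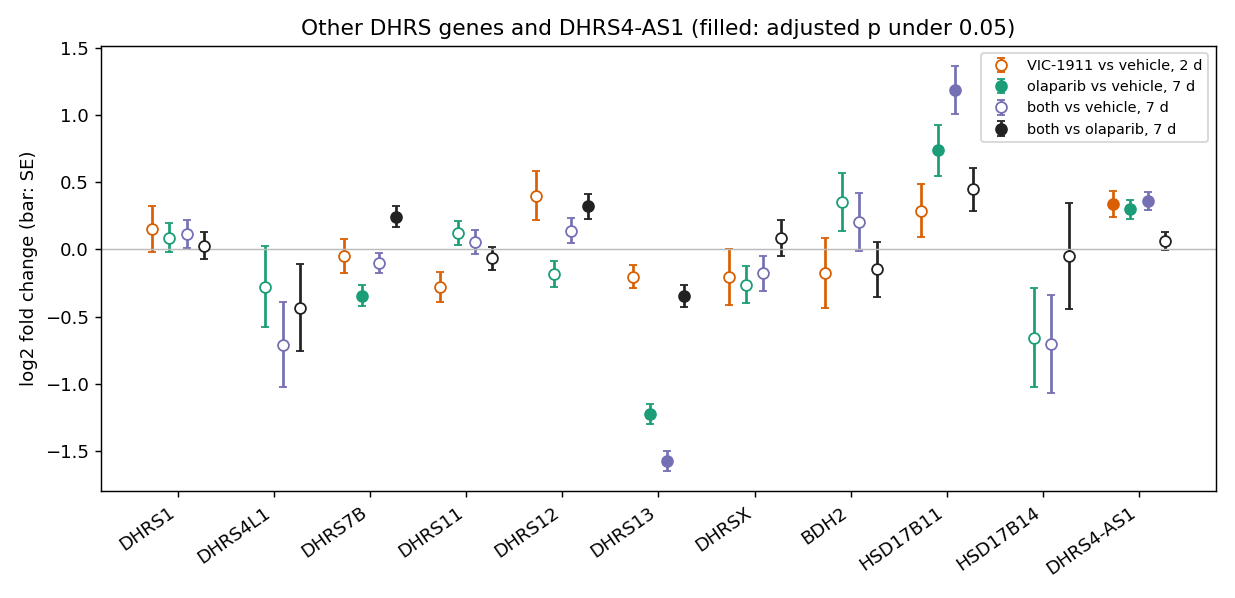
Log2 fold change with its SE (vertical axis) of the 10 other DHRS genes tested at 7 days and of the antisense RNA DHRS4-AS1, in VIC-1911 against vehicle at 2 days and in olaparib, the combination and the combination against olaparib at 7 days; filled points had an edgeR adjusted p under 0.05. DHRS13 is the furthest below 0, at -1.57 with the combination, and HSD17B11 the furthest above, at 1.18.

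Among 29 genes of retinoid metabolism, the pathway that DHRS3 and DHRS9 act in, 11 were tested at 2 days. In edgeR 2 were higher and none lower, beside 7.50% and 7.19% of all genes. DESeq2 gave the same counts and left 2 without an adjusted p (3 higher and 2 lower in edgeR at an unadjusted p under 0.05). The genes that passed were ALDH1A3, which makes retinoic acid, at a log2 fold change of 0.56 (SE 0.062, edgeR adjusted p = 1.36e-08), and RDH11, a retinaldehyde reductase abundant in prostate, at 0.28 (SE 0.047, adjusted p = 5.06e-05). At 7 days 14 were tested, with 6 higher and 2 lower under olaparib (5 and 2 in DESeq2), a share near the 54.0% of all genes called. RDH11 was among the lower, from 232 ± 8.42 FPKM (SD, n = 3) in vehicle to 140 ± 3.65, a log2 fold change of -0.75 (SE 0.043, adjusted p = 5.56e-15). DHRS3 and RDH11, which carry out the same reduction, thus were both lower with olaparib at 7 days. With VIC-1911 RDH11 was higher at 2 days, where DHRS3 was lower, and had a difference of -0.64 at 7 days, which is described without a test.

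When the combination was set against olaparib, 1 retinoid gene was higher, the nuclear receptor RXRA at 0.14 (SE 0.042, edgeR adjusted p = 0.0222), and 1 was lower, the retinol dehydrogenase RDH16 at -0.72 (SE 0.18, adjusted p = 0.00909). Of all genes 4.55% were higher and 6.95% lower there. The median log2 difference of the list was 0.06 at 2 days, 0.12 with olaparib and 0.01 for the combination against olaparib, beside -0.003, 0.01 and 0.0008 for all genes.

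Steroid oxidoreductases, the second substrate class of DHRS7, were called at about the rate of all genes with olaparib. Of 12 tested, 1 was higher and none lower at 2 days in edgeR and in DESeq2, with 1 lower in edgeR at an unadjusted p under 0.05. In edgeR 7.50% of all genes were higher and 7.19% lower at that time. The higher gene of the list was HSD17B4, an enzyme of peroxisomal fatty acid oxidation, at 0.19 (SE 0.049, edgeR adjusted p = 0.00618). With olaparib 3 were higher and 4 lower (2 and 4 in DESeq2), beside 28.1% and 25.9% of all genes. With the combination against olaparib HSD11B2, which inactivates cortisol, was the 1 gene of the 12 that passed, at 0.52 (SE 0.073, edgeR adjusted p = 1.23e-05), where 11.5% of all genes did. HSD3B7 had a difference of 0.16 (SE 0.066, edgeR adjusted p = 0.114). The list's median was -0.03 at 2 days and 0.11 with olaparib.

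A list of carbonyl reductases also held other reductases, among them DECR2. Of its 11 genes tested, 2 were higher at 2 days and 7 with olaparib, where 7.50% and 28.1% of all genes were. No gene of the list was lower in either, where 7.19% and 25.9% of all genes were. DESeq2 called none at 2 days and the same number, 7 higher and none lower, with olaparib. At an unadjusted p under 0.05 edgeR had 3 higher and 1 lower at 2 days, and none lower with olaparib. At 2 days the higher genes were SPR, which completes tetrahydrobiopterin synthesis, at 0.34 (SE 0.094, edgeR adjusted p = 0.0113) and DECR2, a peroxisomal dienoyl-CoA reductase, at 0.27 (SE 0.093, adjusted p = 0.0487). DECR2 was the 1 gene of the list higher for the combination against olaparib, at 0.18 (SE 0.061, edgeR adjusted p = 0.0498), beside 4.55% of all genes. DESeq2 called none of the list there, and the aldehyde reductase AKR7A2 had 0.17 (SE 0.073, edgeR adjusted p = 0.14). The median of the list was 0.07 at 2 days and 0.30 with olaparib.

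MDM2, the reported partner of DHRS2, was examined with its relative MDM4 and with CDKN1A, the p21 cell cycle inhibitor. They belong to a list of 5 genes, of which 2 were higher and 1 lower at 2 days in edgeR, beside 7.50% and 7.19% of all genes. With olaparib 3 of the 5 were higher and none lower, beside 28.1% and 25.9%. At 2 days CDKN1A and MDM2 were higher by 1.23 (SE 0.050, edgeR adjusted p = 8.45e-21) and 0.61 (SE 0.052, adjusted p = 1.25e-11), and MDM4 was lower by -0.48 (SE 0.087, adjusted p = 0.000139). With olaparib CDKN1A was higher by 3.04 (SE 0.051, edgeR adjusted p = 5.86e-28) and MDM2 by 1.34 (SE 0.047, adjusted p = 2.99e-20). MDM4 had a difference of 0.02 with olaparib (SE 0.064, edgeR adjusted p = 0.79). For MDM4 the combination against vehicle gave 0.08 (SE 0.062, edgeR adjusted p = 0.308). In the combination CDKN1A rose by a further 0.27 (SE 0.044, adjusted p = 9.98e-05) over olaparib, while MDM2 had 0.11 (SE 0.044, adjusted p = 0.112). Mean CDKN1A at 7 days was 96.1 FPKM with VIC-1911, 216 with olaparib and 258 with the combination.

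The genes whose log2 CPM followed DHRS2 most closely over the 12 libraries of 7 days were SLF1, HIST1H2BK, HCCS, SNRNP40 and DHX37, with Pearson correlations of 0.974, 0.964, 0.957, 0.955 and 0.951 among 12106 genes. HIST1H2BK, a histone H2B gene, had 86.9 ± 3.81 FPKM (SD, n = 3) in vehicle, 215 ± 26.8 with VIC-1911, 162 ± 3.37 with olaparib and 174 ± 9.34 with the combination. SLF1 had 2.06 ± 0.220, 3.25 ± 0.139, 2.82 ± 0.0431 and 2.84 ± 0.137 FPKM in the same order. The genes were picked for their likeness to DHRS2 in these 12 libraries, so the values are a description and carry no test.

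The neighbours that could be tested, most of them around the DHRS4 cluster, did not move as a block. Within 250 kb of DHRS2 itself only NGDN, THTPA and AP1G2 were tested at 2 days, and also ZFHX2 at 7 days. The genes next to DHRS2 failed the filter, so little is known of its own surroundings. Of 39 other genes within 250 kb of DHRS2 or DHRS4, 15 were tested at 2 days. Of these 2, DHRS4-AS1 and IPO4, were higher and 1, PCK2, was lower, beside 7.50% and 7.19% of all genes. DESeq2 called PCK2 alone. With olaparib 2 of 21 were higher and 4 lower (2 and 3 in DESeq2), beside 28.1% and 25.9% of all genes. Between the combination and olaparib none of the 21 passed in edgeR, which called 11.5% of all genes, or in DESeq2, which left 4 without an adjusted p, and 1 was higher and 1 lower in edgeR at an unadjusted p under 0.05. The largest change was that of PCK2, the mitochondrial phosphoenolpyruvate carboxykinase, which fell by 1.08 (SE 0.057, edgeR adjusted p = 2.43e-17) at 2 days and by 4.40 (SE 0.061, adjusted p = 5.99e-30) with olaparib on the log2 scale. PSME2, a proteasome activator subunit, was higher with olaparib by 0.87 (SE 0.085, adjusted p = 6.39e-10). AP1G2, the gene tested nearest to DHRS2, had a difference of -0.04 (SE 0.084, adjusted p = 0.819) at 2 days and was lower by -0.29 with olaparib (SE 0.055, adjusted p = 6.7e-05).

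**Figure D5:**
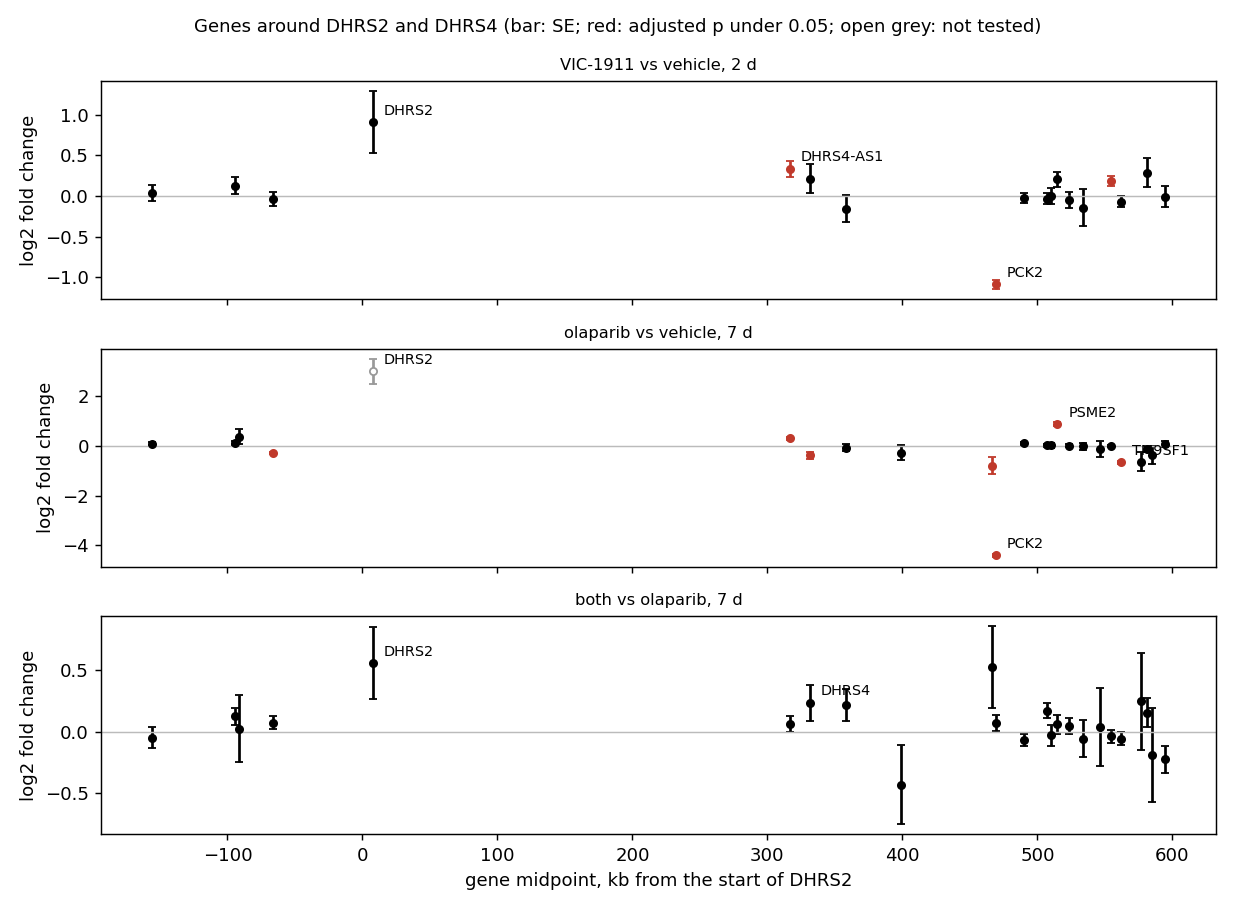
Log2 fold change with its SE (vertical axis, a different range in each panel) of the genes tested around DHRS2 and DHRS4 against the distance of each gene's midpoint from the start of DHRS2 in kb, in 3 comparisons; red points had an edgeR adjusted p under 0.05 and the open grey point was not tested. DHRS2 is the highest point in each panel, and PCK2 lies lowest in the upper panels, at -1.08 and -4.40.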

How the data were processed

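Poly(A) RNA of C4-2B cells was sequenced in 18 libraries. According to the study's methods, adaptors were removed with Trimmomatic and STAR mapped the reads to GRCh38 (the submitters' processing notes name version 2.6.0). The authors deposited whole counts per gene without normalization, in 1 table per time. The authors also deposited FPKM values from an in-house script. Strand setting, annotation release and the handling of reads shared between genes are not given in the sources used here. All 36 columns were used, each mapped to its sample by its library name.

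For the tests edgeR 4.0.16 was run under R 4.3.3 on the counts (TMM scaling, quasi-likelihood F-test). The 6 libraries of 2 days and the 12 of 7 days were modelled apart. A gene entered when 3 or more libraries had 10 or more counts (12241 and 14409 genes). The study used DESeq2, which served here as an alternative (1.42.0), as did limma 3.58.1 on FPKM. A gene was called at a Benjamini-Hochberg adjusted p-value under 0.05 over all genes tested, and folds were set against the study's limits of 1.5 at 2 days and 2 at 7 days. The biological coefficient of variation was 3.44% and 4.43%. Depth, between 3245273 and 19684208 counts per library, sets the precision. Pooled ratios that do not involve the libraries that chose DHRS2 carry exact conditional (Clopper-Pearson) intervals and pooled levels exact Poisson intervals, which cover counting error only.

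The reads behind the 2-day FPKM values were recovered with gene lengths taken from the 7-day tables. Between 99.98% and 100% of values below 30 reads lay within 0.05 of a whole number. Gene positions are those of RefSeq on GRCh38.p14, and transcripts and sequences those of GENCODE v44. In the tables, 28 gene names had become calendar dates and held 0.182% and 0.193% of counts. They stayed in the fits. The code was tested on simulated data.

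The members, gene lists, comparisons and rules were chosen with earlier results of these data known. Genes named are the 6 members, the other DHRS genes tested, up to 4 genes of each further list (the 2 smallest adjusted p-values in each of the combination against olaparib and VIC-1911 at 2 days), the 5 genes with the highest correlation with DHRS2 among those reaching 1 FPKM in a group, and genes within 250 kb of DHRS2 or DHRS4. MDM4 was named after its value was seen. Results for some genes of the lists are not reported here. Alternatives were other scaling, other filters, DESeq2, limma, a replicate block, fits of 2 groups alone, summed copies and each library left out. The fit to the recovered reads was added after the data had been seen. No protein or promoter sequence was used here.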

Additional observations from a re-analysis of the deposited data

Results flagged for a closer look

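DHRS3 moved in opposite directions under the same added drug. For the combination against olaparib its log2 fold change was 0.60, with all 3 combination libraries above all 3 olaparib libraries, whereas for VIC-1911 against vehicle at 7 days it was -1.50, with all VIC-1911 libraries below all vehicle libraries. The same held for olaparib, with 0.73 for the combination against VIC-1911 and -1.36 for olaparib against vehicle. The difference between these effects was not tested, since it contains the comparison for which the DHRS genes were chosen.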

How the results depend on the processing

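The DHRS3 and DHRS7 calls against vehicle at 2 days, with olaparib and with the combination kept their direction and their side of the threshold in every alternative run, as did DHRS3 for the combination against olaparib (log2 0.47 to 0.73) and against VIC-1911 (0.57 to 0.82). DHRS2 at 2 days passed only with limma, run on the genes of the same count filter, at 0.69 (adjusted p = 0.0358) on log2(FPKM + 0.1) and 0.37 (adjusted p = 0.0336) on log2(FPKM + 1). It ranged from 0.64 to 1.09 when a vehicle library was left out, failed the filter when a VIC-1911 library was left out, and DESeq2 gave it no adjusted p there or for the combination against olaparib. For the combination against olaparib 2 members passed with the replicate block (DHRS7 at -0.12, adjusted p = 0.0466), and 1 to 2 when a library was left out, 2 being reached without combination replicate 1 (DHRS7 at -0.17, adjusted p = 0.0201). For the combination against VIC-1911 2 members passed with upper-quartile scaling (DHRS7 at 0.12, adjusted p = 0.0377), and 1 to 2 when a library was left out, 2 without combination replicate 2 (DHRS7 at 0.12, adjusted p = 0.0473). Differences that were not called changed sign for DHRS4L2 at 2 days, to 0.044 without vehicle replicate 2 (range -0.27 to 0.044 when a library was left out), and for DHRS4 in the combination against VIC-1911, to 0.037 with upper-quartile scaling, 0.027 with library size alone, 0.0085 with the FPKM filter, 0.045 and 0.096 without VIC-1911 replicates 1 and 3, and 0.063 without combination replicate 2 (range -0.13 to 0.096). The cause of these changes was not tested.

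Same-numbered libraries of different groups correlated in their deviations from the group means between -0.003 and 0.04 at 2 days and between -0.04 and 0.11 at 7 days. For libraries with unlike numbers the ranges were -0.03 to 0.03 and -0.08 to 0.10. With 3 libraries per group these values cannot decide whether replicate numbers pair the libraries. With the replicate block the genes called went from 1798 to 1838 at 2 days and from 1657 to 1795 for the combination against olaparib, and DHRS2 had 0.84 (edgeR adjusted p = 0.156) and 0.64 (edgeR adjusted p = 0.174) in these comparisons. Against vehicle at 7 days they went from 7785 to 7834 genes with olaparib and from 8153 to 8228 with the combination. For the combination against VIC-1911 they went from 6177 to 6310. With 6 counts in the 7-day vehicle group and at most 4 per library for DHRS9, depth limits what DHRS2 and DHRS9 can show.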
